A study of Mus musculus with 6 samples.

Results

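Keratin genes were taken as the rows of the 6 gene count tables whose symbol is Krt followed by digits alone. This rule found 48 of the 23420 symbols, 26 type I and 22 type II keratins, and left out 4 keratins whose symbol ends in a letter (Krt6a, Krt6b, Krt33a and Krt33b). The libraries were made from tooth germs of C57BL/6 mouse embryos at E15.5, 3 labelled wild type and 3 labelled Smad7-/-. Both groups share strain, age and tissue, and neither carries a treatment or a further allele in the labels. Smad7 encodes an inhibitory SMAD that restrains signalling by TGF-beta and BMP ligands, and the design asks how its loss changes tooth germ transcripts. The labels do not say how the Smad7 allele was made, nor whether germs were pooled or came from separate embryos, and p-values therefore reflect the variation among these samples alone.

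Keratins build the intermediate filaments of epithelial cells. Each filament is made of obligate pairs of an acidic type I and a basic type II chain, and the pair used marks the state of the epithelium: Krt5 with Krt14 in basal cells of stratified epithelia, Krt8 with Krt18 in simple epithelia, and Krt1 with Krt10 in cells that have left the basal layer to cornify. In a tooth germ, keratins belong to the enamel organ and the oral epithelium, whereas the mesenchyme of the dental papilla and follicle builds its filaments from vimentin. With a single exception (the type I gene Krt18, which lies beside Krt8), type I genes form a cluster on mouse chromosome 11 and type II genes a cluster on chromosome 15.

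The libraries held 37591888 to 56575476 counts. Levels are given as CPM, the counts of a gene per 1000000 counts of the scaled library, and differences as log2 fold changes of Smad7-/- over wild type from edgeR's quasi-likelihood test, with the standard error (SE) of the fit and p-values adjusted by Benjamini-Hochberg over the 15284 genes tested. The label check held: Smad7 had 1097, 934 and 859 counts in wild type and fell to 80, 62 and 41 counts in Smad7-/-, a log2 fold change of -3.80 ± 0.33 (SE, n = 3 per group, edgeR adjusted p = 0.00749). Genes of dental epithelium were present and, in the 2 named here, lower in every Smad7-/- library than in any wild-type library, without passing the edgeR threshold. Sp6, a transcription factor gene, was at 1655 to 1969 CPM in wild type and 1400 to 1590 CPM in Smad7-/- (log2 fold change -0.26 ± 0.11), and Shh, a ligand gene of the enamel knot, at 488 to 598 and 380 to 449 CPM (-0.37 ± 0.11). The libraries also fell into 2 sets that cross genotype on the first principal component (33.5% of the variance). The first set holds wild-type library 1 and Smad7-/- libraries 1 and 2, and the second holds wild-type libraries 2 and 3 and Smad7-/- library 3. Sex, read from Xist and the Y-linked Ddx3y, differed within each group. Xist was at 195 CPM in wild-type library 1 and 365 CPM in Smad7-/- library 3, both with Ddx3y at 0. Each other library had Ddx3y at 117 to 166 CPM and Xist at no more than 0.202 CPM. Among markers of other cell types, all 8 dental mesenchyme genes were higher in every Smad7-/- library than in any wild-type library, beside 4.97% of all genes tested (summed 230 to 297 CPM against 361 to 390 CPM). Of these 8, 7 had an unadjusted edgeR p under 0.05, 0 passed the edgeR threshold after adjustment and 1 (Prrx1) passed that of DESeq2. The sum of 10 general epithelial markers (Cdh1, Epcam and others) ran from 1480 to 1696 CPM in wild type and from 1282 to 1527 CPM in Smad7-/-, and the part of these markers in the keratin values was not tested. Of other tissues that could be cut out with a germ, red cell genes summed to 35.3 to 50.5 CPM in wild type and 16.8 to 28.7 CPM in Smad7-/-, and skeletal muscle genes to 2.83 to 5.51 and 1.2 to 2.62 CPM. Of 6 markers each for other keratin-bearing tissues, the salivary gland list summed to 0.665 to 2.16 CPM in the 6 libraries, with Smgc and Bpifa2 at 0 counts. The airway list summed to 22.3 to 42.6 CPM, almost all of it Cftr, with Scgb1a1 and Nkx2-1 at 0 counts. The Merkel cell list summed to 23.7 to 35.8 CPM, almost all of it Piezo2, with Atoh1 at 0 counts. The globin genes Hba-a1 and Hba-a2 also had 0 counts beside Alas2 at 13.7 to 30.5 CPM, so a 0 in these tables need not mean absence.

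Transcript starts of 34 of the 48 members matched the RefSeq promoter table (GRCm38.p6), in 35 promoters. The 60 bases before the start are shown for 3 abundant or variable members of the tooth germ (Krt5, Krt75 and Krt10) and for 3 hair or cornified-layer members at different levels (Krt28, Krt25 and Krt2). All 6 lie on the minus strand and are written 5′ to 3′ along the gene, with the letters TATAAA in capitals where they occur.
Krt5, chr15:101712906-101712965: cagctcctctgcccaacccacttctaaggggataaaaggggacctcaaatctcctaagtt
Krt75, chr15:101573905-101573964: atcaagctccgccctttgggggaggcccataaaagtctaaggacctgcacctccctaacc
Krt10, chr11:99389365-99389424: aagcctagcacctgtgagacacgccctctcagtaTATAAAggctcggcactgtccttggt
Krt28, chr11:99374904-99374963: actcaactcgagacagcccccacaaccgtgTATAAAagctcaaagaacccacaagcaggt
Krt25, chr11:99322952-99323011: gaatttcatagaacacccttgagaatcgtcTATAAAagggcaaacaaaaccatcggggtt
Krt2, chr15:101818170-101818229: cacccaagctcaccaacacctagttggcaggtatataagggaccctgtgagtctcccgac
The letters TATAAA on the gene's own strand, beginning between -40 and -20 of the start, were found in 13 of the 35 keratin promoters (37.1%) and in 1.99% of all 32851 promoters of the table. On both strands of the 250 bases before the start, the shares were 45.7% of keratin promoters and 12.4% of all. The AP-1 letters TGANTCA were found in 5.71% of keratin and 6.75% of all promoters, and the AP-2 letters GCCNNNGGC in 11.4% and 13.7%, both searched on both strands. Among the 34 genes with a promoter, those with the positioned TATAAA were not the abundant ones in the tooth germ. Of these 13 genes 11 had a mean under 1 CPM, the median was 0.0186 CPM and the highest was Krt10 at 14.6 CPM. Of the 21 genes with a promoter but without these letters there, 12 also had a mean under 1 CPM. The 21 had a median of 0.647 CPM and included Krt5 at 4105 CPM. They also included Krt27, whose TATAAA begins at -15, and Krt14, whose promoter used here (chr11:100205981-100206280) lies inside the annotated gene. Of the members with a mean of at least 1 CPM, Krt17, Krt80, Krt15, Krt222, Krt1, Krt16 and Krt19 had no matched promoter and were not scored. Among the promoters shown, those of Krt28 and Krt25 both carry TATAAA at -30, and Krt28 had a mean of 8.77 CPM while Krt25 had at most 0.0521 CPM in a library. A match of letters is a description of these sequences and not of factor binding.

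The keratins of the tooth germ were basal in kind and concentrated in a few genes. Members held 0.575 to 0.723% of all counts of a library. Krt5 took 59.5 to 62.0% of the keratin counts, Krt14 took 20.2 to 23.1% and Krt17 took 13.5 to 14.7%, so that these 3 genes together held 95.7 to 96.3% in the 6 libraries. Of the other 45 members, 7 had a mean of 10 to 100 CPM, 8 of 1 to 10 CPM and 30 of under 1 CPM. Krt2, Krt31, Krt34 and Krt40, keratins of cornified epidermis and hair, had no count in any library, which allows up to 0.0521 to 0.0799 CPM depending on the library (3 counts, counting error only). The low-count filter passed 28 members. The 20 that were not tested reached at most a mean of 0.316 CPM (Krt4, a mucosal keratin).

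**Figure D1:**
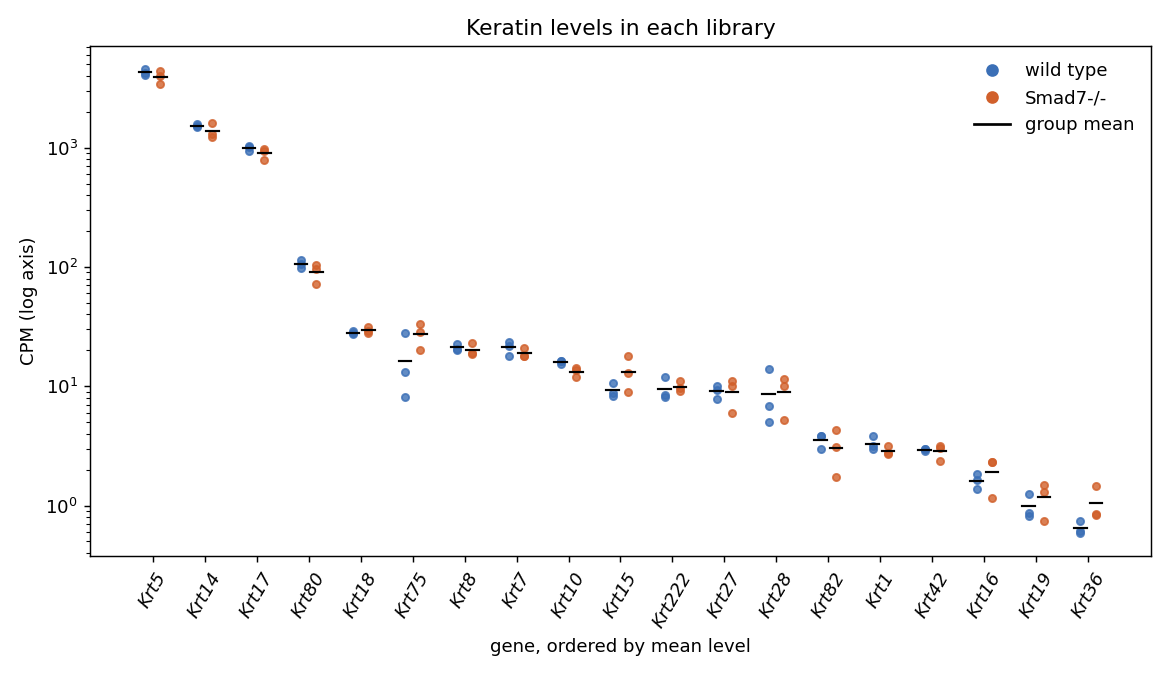
Level in CPM (log axis) of the 19 members with a mean of at least 1 CPM or, among tested members, with group ranges that do not overlap, 1 point per library (blue wild type, orange Smad7-/-, n = 3 each) and a bar at the group mean. Krt5, Krt14 and Krt17 stand above all others, and the points of Krt75 and Krt28 are the most scattered among the genes above 5 CPM.

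Per kilobase of transcript, the scale on which genes can be compared, the mean level over the 6 libraries was 1869 CPM per kb for Krt5, 858 for Krt14 and 609 for Krt17. Krt80 followed at 32.0 CPM per kb, Krt18 at 20 and Krt8 at 10.6. The per-library ranges of these 6 genes did not overlap with that of the next gene in the order. Below them, Krt10 (6.98), Krt75 (6.69), Krt15 (6.61), Krt27 (5.83), Krt28 (5.40) and Krt7 (4.88 CPM per kb) overlapped with their neighbours in the order. The rest of the members above 1 CPM lay between 3.17 CPM per kb (Krt222) and 0.686 (Krt19).

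Genes at very different levels lie next to each other in both clusters, which span 1037 kb on chromosome 11 (25 members) and 685 kb on chromosome 15 (22 members, with Krt18). Krt14 (chr11:100203162-100207548, mm10) stands 9915 bp from Krt9, a keratin of palm and sole epidermis, and its level per kb was 9020-fold that of Krt9. Krt17 (chr11:100256217-100261029) lies between Krt16 and Krt42, 7314 bp and 1852 bp away, and exceeded them 538-fold and 324-fold per kb. On chromosome 15, Krt5 (chr15:101707070-101712898) was 13624-fold above Krt71, a keratin of the hair's inner root sheath, across 21050 bp. The ratios to Krt9 and Krt71 are rough, since these genes had 72 and 89 counts in all libraries together. On both chromosomes the abundant keratins thus had direct neighbours at far lower levels. The 2 genes of the simple pair, Krt8 and Krt18, lie 23697 bp apart and differed by 1.90-fold.

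**Figure D2:**
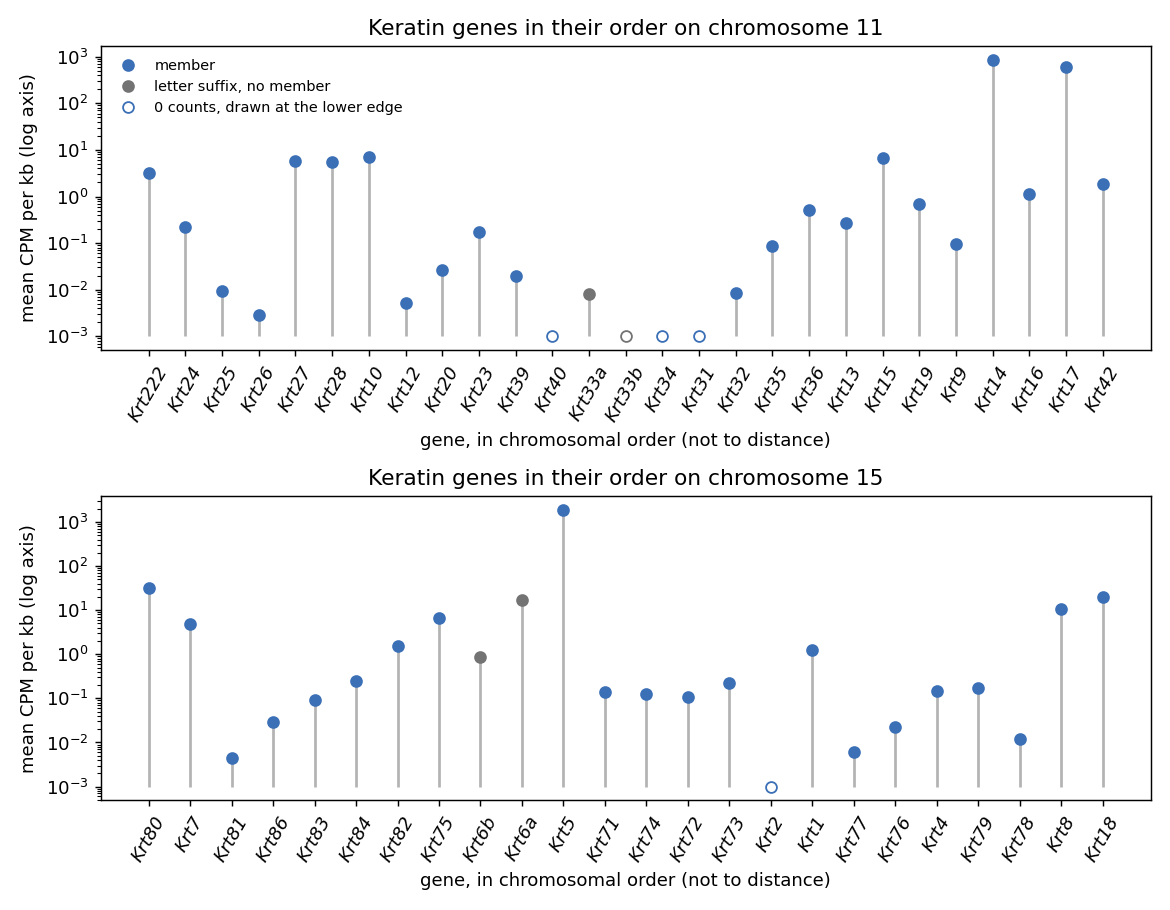
Mean level of each keratin gene over the 6 libraries in CPM per kb of transcript (log axis), in chromosomal order on chromosome 11 (top) and chromosome 15 (bottom). Open circles at the lower edge had 0 counts and grey points are letter-suffix keratins outside the rule. Krt14, Krt17 and Krt5 rise above direct neighbours by 324-fold to 13624-fold, Krt6a beside Krt5 (108-fold) excepted. The largest of these ratios rest on few counts of the lower gene and are rough.

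Sequence similarity limits some of these values, because reads from identical stretches cannot be assigned to 1 gene. Among 46 members with a transcript, 23 share no 50-base stretch with a transcript of another gene and 10 share at least 10% of theirs. Krt16 shares 37.6% of its 50-base stretches, with the gene model Gm11597 and with Krt14, and Krt8 shares 26.9%, with a Krt8 pseudogene. For Krt14 the share is 14.4% and for Krt5 8.52%, largely with Krt6a. The kit does not mark strand, so reads from exons shared with a gene on the opposite strand cannot be told apart. Gene models on the opposite strand overlap the spans, introns included, of Krt5, Krt7, Krt8, Krt10, Krt75 and Krt80. The same holds for the low members Krt12, Krt32 and Krt76. Whether exons overlap was not examined.

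Between genotypes, no keratin passed the threshold. edgeR called 0 of the 28 tested members, where it called 0.0262% of all genes tested (4 of 15284). It called 0 members higher and 0 lower, beside 0.0131% of genes in each direction, and DESeq2 also called 0 members, where it called 0.351% of genes. An unadjusted edgeR p under 0.05 was reached by 2 members, Krt10 and Krt15, beside 5.14% of all genes. The log2 fold change was above 0 for 13 members and below 0 for 15 (53.6%, beside 50.9% of all genes), with a median of -0.02 beside -0.00 for all genes. Group ranges did not overlap for 2 tested members, beside 8.88% of all genes, namely 1 that was higher in Smad7-/- (Krt36, beside 4.97%) and 1 that was lower (Krt10, beside 3.91%). The median SE was 0.32 for the tested members and 0.14 for all genes, and 10 of the 28 lay under 1 CPM, although Krt75 at 21.8 CPM also had an SE of 0.43. In RNA from whole germs, fewer cells of a type and less RNA per cell cannot be told apart.

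**Figure D3:**
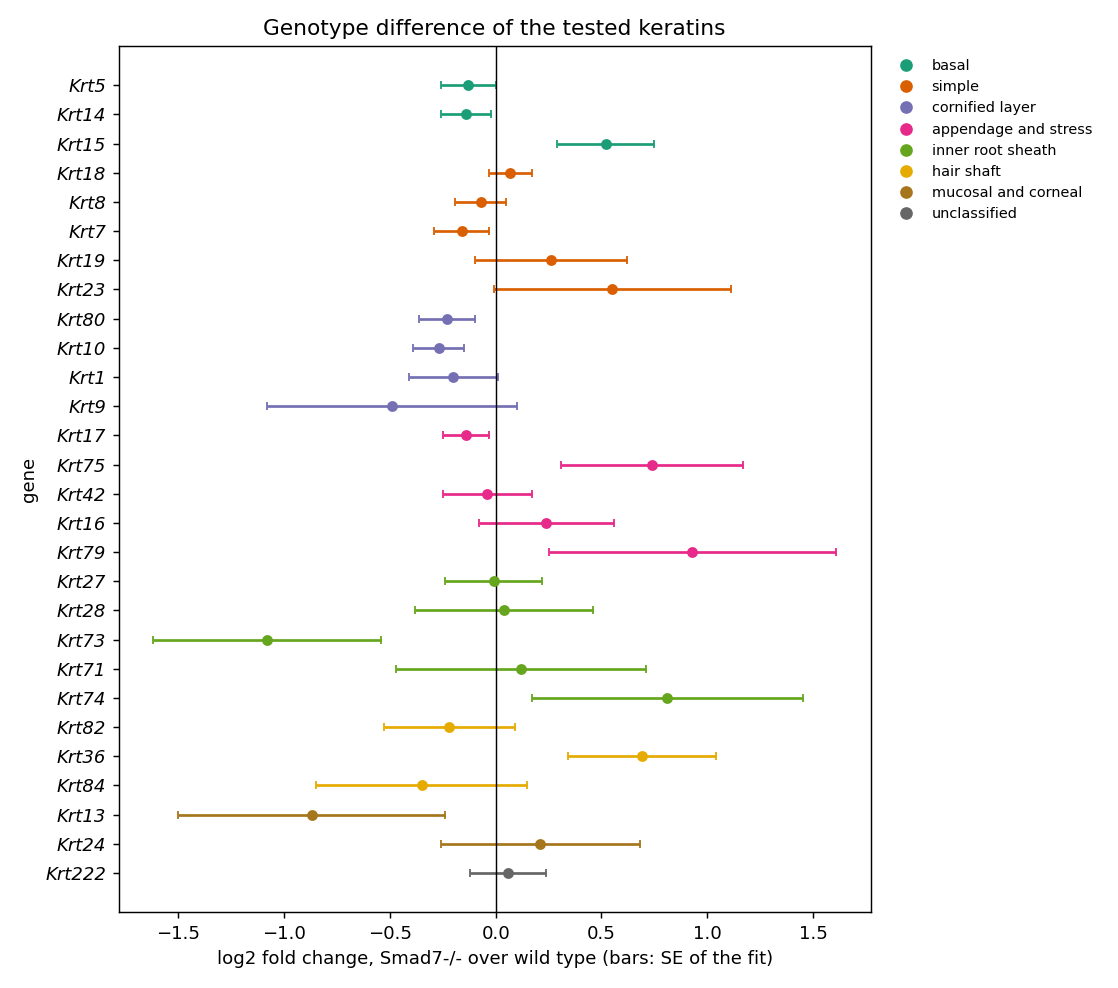
log2 fold change of the 28 tested keratins, Smad7-/- over wild type, with bars of 1 SE of the edgeR fit, coloured by class. Krt5, Krt14, Krt17, Krt18, Krt8 and Krt7 lie between -0.16 and 0.07 with short bars, and the members far from 0, such as Krt73 at -1.08 ± 0.54, have long ones.

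The basal keratins Krt5 and Krt14 form the filament of dividing cells in stratified epithelia. Krt5 was at 4556, 4225 and 4074 CPM in wild-type libraries 1 to 3 and at 4002, 4372 and 3403 CPM in the Smad7-/- libraries. Smad7-/- library 3 was the lowest and the groups overlapped, for a log2 fold change of -0.13 ± 0.13 (SE), with a 95% interval from -0.42 to 0.17. Its partner Krt14 was at 1513, 1493 and 1580 CPM in wild type and at 1309, 1626 and 1221 CPM in Smad7-/-. The Smad7-/- libraries held both the highest and the lowest Krt14 value, and the log2 fold change was -0.14 ± 0.12, with an interval from -0.42 to 0.14. Scaled to the epithelial markers, Krt5 and Krt14 were at -0.02 and -0.05, where the median of all genes moved to 0.11. The Krt5 to Krt14 ratio per kb stayed between 1.99 and 2.36 in the 6 libraries, and its means were 2.17 ± 0.168 (SD, n = 3) in wild type and 2.20 ± 0.148 in Smad7-/-.

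Krt15, a type I basal keratin that marks slow-cycling basal and hair bulge cells, had the other sign. It was at 8.72, 10.7 and 8.27 CPM in wild type and at 17.9, 12.9 and 9.03 CPM in Smad7-/-. Smad7-/- libraries 1 and 2 lay above every wild-type library and Smad7-/- library 3 lay among them. The means were 9.22 ± 1.28 and 13.3 ± 4.44 CPM (SD, n = 3 each), with a log2 fold change of 0.52 ± 0.23 and an edgeR adjusted p of 0.963. Within the first library set the difference was 0.82 on the log2 scale, and within the second -0.07, each with a lone library in one genotype. It was 0.25 without Smad7-/- replicate 1 and 0.74 without Smad7-/- replicate 3. The Krt5 to Krt15 ratio per kb accordingly ran from 306 to 404 in wild type and from 173 to 292 in Smad7-/-. The ranges of this ratio did not overlap, by the narrow gap between 292 (Smad7-/- library 3) and 306 (wild-type library 2). The ratios of Krt5 to Krt14, Krt17 to Krt14, Krt8 to Krt18 and Krt10 to Krt1 did overlap. No share over all genes was computed for such ratios.

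The simple keratins were low and even. They are the filaments of single-layered epithelia and of embryonic surface cells, and 5 of the 6 members were tested. Krt18 was at 27.9, 29.1 and 27.2 CPM in wild type and at 27.8, 29.2 and 31.4 CPM in Smad7-/-. Its type II partner Krt8 was at 22.8, 20.1 and 20.6 CPM in wild type and at 23, 18.5 and 19.1 CPM in Smad7-/-. The groups overlapped in both genes, with log2 fold changes of 0.07 ± 0.10 (95% interval -0.14 to 0.29) for Krt18 and -0.07 ± 0.12 (-0.34 to 0.21) for Krt8, which was 0.05 when scaled to the epithelial markers. Krt7, a type II keratin of ducts and glands, was at 23.6, 18.1 and 21.7 CPM in wild type and at 17.8, 21 and 17.9 CPM in Smad7-/-, a log2 fold change of -0.16 ± 0.13. The type I Krt19, found in simple epithelia and in some basal cells, was at 0.819, 0.870 and 1.26 CPM in wild type and at 1.30, 1.5 and 0.746 CPM in Smad7-/-. Its libraries overlapped, with a log2 fold change of 0.26 ± 0.36. The summed level of the class was 71.5 ± 3.65 CPM in wild type and 70.1 ± 0.691 CPM in Smad7-/- (SD, n = 3 each). Krt20 and Krt23, which are typical of gut and other glandular epithelia, were under 1 CPM in every library.

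The cornified-layer class (7 members) was tested in 4, and all 4 log2 fold changes were below 0, beside 50.9% of all genes. Their median was -0.25. Krt80, a type II keratin of epithelia that begin to differentiate, made up most of this class. It was at 98.2, 114 and 105 CPM in wild type and at 72.2, 103 and 96.5 CPM in Smad7-/-. Smad7-/- library 1 stood lowest and library 2 lay within the wild-type range, with a log2 fold change of -0.23 ± 0.13 and an interval from -0.52 to 0.06, and -0.09 without Smad7-/- replicate 1. Krt10, the type I keratin of suprabasal epidermis, was at 15.4, 16.4 and 16.2 CPM in wild type and at 14.1, 13.8 and 11.9 CPM in Smad7-/-. Every Smad7-/- library lay below every wild-type library, with means of 16 ± 0.569 and 13.2 ± 1.14 CPM. The log2 fold change was -0.27 ± 0.12, with an unadjusted edgeR p of 0.0499 that became 0.963 after adjustment. Scaled to the epithelial markers, the log2 fold change of Krt10 was -0.17. Its partner Krt1 was at 3.82, 3.15 and 2.95 CPM in wild type and at 2.71, 2.76 and 3.18 CPM in Smad7-/-, and the groups overlapped (log2 fold change -0.20 ± 0.21). The whole class summed to 118 to 134 CPM in wild type and 89.2 to 119 CPM in Smad7-/-, and the groups overlapped. Without Krt80, it summed to 19.5, 20 and 19.4 CPM in wild type and to 17.1, 16.6 and 15.6 CPM in Smad7-/-. Krt10 dominates this smaller sum, and no share over all genes was computed for it. Krt9, Krt77 and Krt78 were under 1 CPM in every library, with Krt77 at 0 counts in wild type and at 1 or 2 counts in each Smad7-/- library, and Krt2 had no count.

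**Figure D4:**
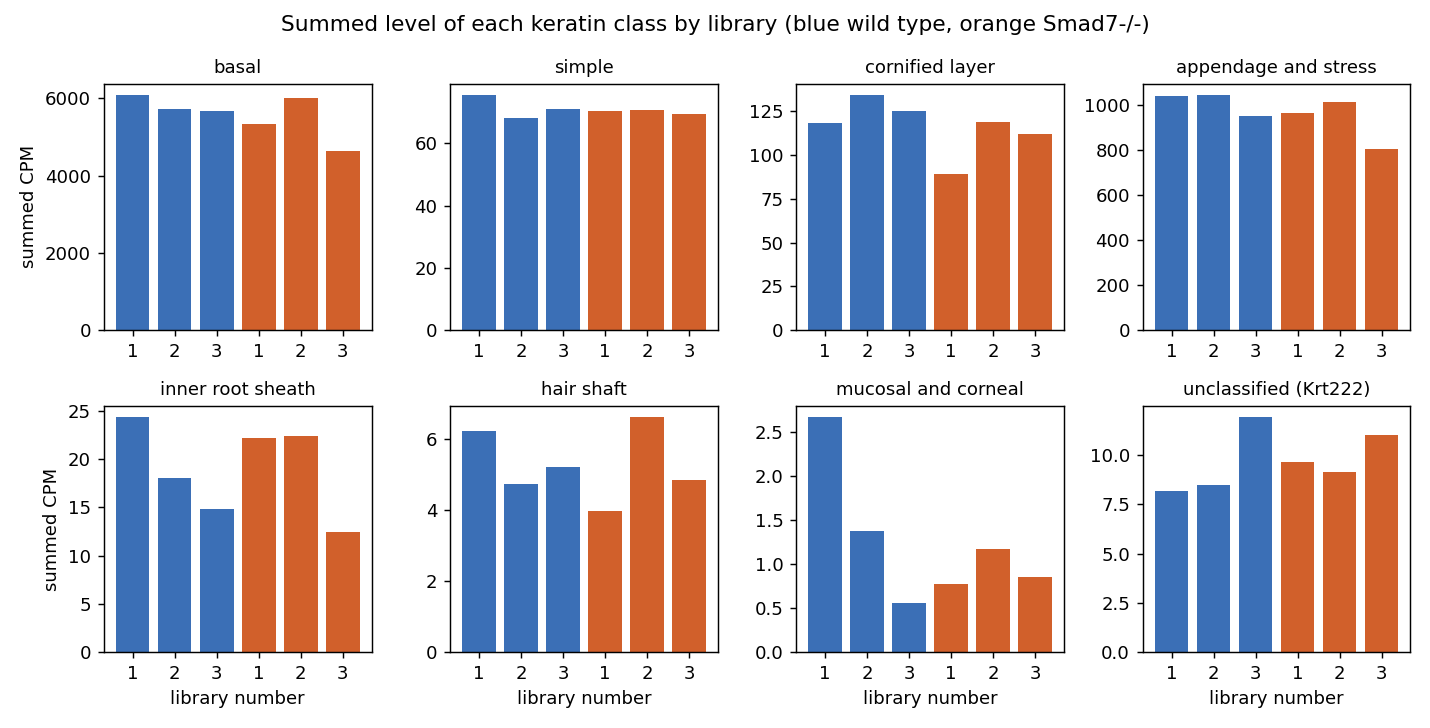
Summed CPM of each keratin class in each library, wild type in blue and Smad7-/- in orange, on axes that start at 0 and differ between panels. The basal class lies between 4633 and 6078 CPM and the simple class between 68.2 and 75.4 CPM, and in every panel drawn the bars of the 2 groups overlap in height.

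The third abundant keratin, Krt17, is a type I keratin of embryonic ectoderm, skin appendages and wounded epidermis. It was at 1009, 1032 and 934 CPM in wild type and at 933, 977 and 781 CPM in Smad7-/-. Smad7-/- library 3 was again the lowest, and the log2 fold change was -0.14 ± 0.11 with an interval from -0.39 to 0.11. Relative to Krt14, the level of Krt17 per kb was 0.647 to 0.781 in the 6 libraries and the groups overlapped. Relative to the geometric mean of 10 epithelial markers, the sum of all keratins was 162, 150 and 195 in wild type and 177, 166 and 155 in Smad7-/-, with overlapping groups. This mean weighs the 10 markers equally. Cldn7, the only 1 of them with a log2 fold change above 0 (0.26 ± 0.62), had just 6 to 35 counts per library, with 6 in wild-type library 3. Every value scaled to these markers rests in part on Cldn7, and scaling without it was not tested.

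Krt75 varied most among the members above 10 CPM. This type II keratin belongs to the companion layer of the hair follicle and has also been found in tooth enamel. It was at 27.7, 8.17 and 13.2 CPM in wild type and at 28.5, 33.1 and 20.3 CPM in Smad7-/-. Wild-type library 1 lay with the Smad7-/- libraries and the other wild-type libraries below them all. The means were 16.4 ± 10.2 and 27.3 ± 6.51 CPM, with a log2 fold change of 0.74 ± 0.43 and a 95% interval from -0.28 to 1.75 (edgeR adjusted p = 0.999). Without wild type replicate 1 the log2 fold change was 1.35 and edgeR's adjusted p was 0.258. Krt75 also followed the 2 library sets: it was at 27.7 to 33.1 CPM in the first and at 8.17 to 20.3 CPM in the second, 2.15-fold apart. The genotype difference was 0.15 within the first set and 0.92 within the second on the log2 scale.

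The other appendage and stress keratins were low. Krt16, a type I keratin induced in wounds, was at 1.64, 1.38 and 1.84 CPM in wild type and at 2.32, 2.30 and 1.16 CPM in Smad7-/-, a log2 fold change of 0.24 ± 0.32. Krt42, a type I neighbour of Krt17, was at 2.97, 2.97 and 2.85 CPM in wild type and at 3.14, 3.06 and 2.38 CPM in Smad7-/-, a log2 fold change of -0.04 ± 0.21. In both genes Smad7-/- library 3 was the lowest of the 6 and the groups overlapped. Krt79, a keratin of hair canal and sebaceous duct, was under 1 CPM in every library.

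Of the inner root sheath keratins, which support the growing hair, only Krt27 and Krt28 of the 8 members reached a mean of 1 CPM. Krt27 was at 9.31, 10.1 and 7.77 CPM in wild type and at 10, 11.1 and 5.94 CPM in Smad7-/-. Krt28 was at 14, 6.86 and 5.05 CPM in wild type and at 11.4, 10.1 and 5.19 CPM in Smad7-/-. Neither separated by genotype, with log2 fold changes of -0.01 ± 0.23 and 0.04 ± 0.42. Krt28 did separate by library set, at 10.1 to 14 CPM in the first and 5.05 to 6.86 CPM in the second, whereas Krt27 beside it on the chromosome overlapped. Of the 28 tested members, 4 did not overlap between the sets: Krt28, Krt75 and Krt23 were higher in the first set and Krt73 was lower, beside 28.6% of all genes tested, a description only since the sets were drawn from the same counts. Krt23 and Krt73 were named after their values were seen. Krt25, in contrast to its near neighbours Krt27 and Krt28, had at most 0.0521 CPM in a library. Of 6 hair follicle markers outside the keratins, 5 passed the low-count filter, and the hair shaft gene Krtap3-1 had no count. Mean levels of the 5 were 401 CPM for Dlx3, 14.6 for Tchh, 6.69 for Padi3, 4.02 for Hoxc13 and 3.64 for Foxn1.

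**Figure D5:**
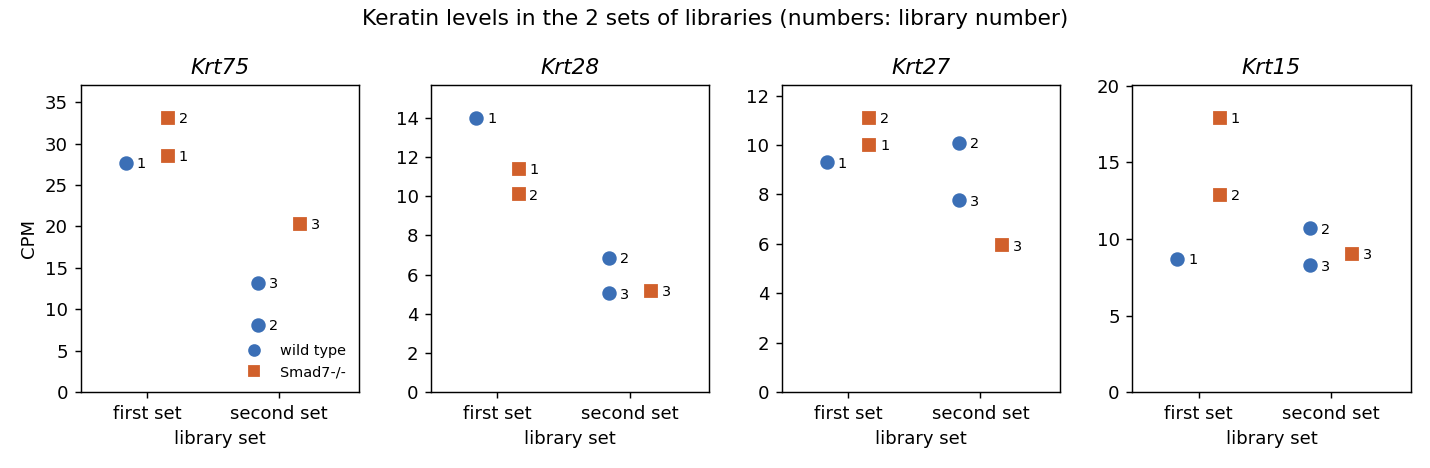
CPM of Krt75, Krt28, Krt27 and Krt15 in the first set (wild-type library 1, Smad7-/- libraries 1 and 2) and the second set (wild-type libraries 2 and 3, Smad7-/- library 3), with blue circles for wild type, orange squares for Smad7-/- and library numbers beside them. Krt75 and Krt28 do not overlap between the sets, and Krt27 and Krt15 do.

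The hair shaft keratins, the hard keratins of the hair fibre, summed to 3.97 to 6.62 CPM over 13 members, and 3 were tested. Krt82, a type II keratin of the hair cuticle, was at 3.86, 2.95 and 3.81 CPM in wild type and at 1.73, 4.26 and 3.12 CPM in Smad7-/-. The Smad7-/- libraries held both its highest and its lowest value, with a log2 fold change of -0.22 ± 0.31. Krt36, a type I hair keratin, was at 0.741, 0.607 and 0.586 CPM in wild type and at 1.46, 0.828 and 0.850 CPM in Smad7-/-. All Smad7-/- libraries lay above all wild-type libraries, by a log2 fold change of 0.69 ± 0.35 with an edgeR adjusted p of 0.995, and by 0.38 without Smad7-/- replicate 1. The mucosal and corneal keratins summed to 0.565 to 2.67 CPM, with the highest sum in wild-type library 1. In that library Krt4, a type II keratin of the lining of mouth and oesophagus, had 51 counts, beside 21 and 4 in the other wild-type libraries and 7, 6 and 4 in Smad7-/-. Its type I partner Krt13 was highest there as well, at 1.05 CPM, and had a log2 fold change of -0.87 ± 0.63. Krt222, a type I gene placed in no class here, was at 8.17, 8.49 and 11.9 CPM in wild type and at 9.66, 9.13 and 11 CPM in Smad7-/-. Its groups overlapped (log2 fold change 0.06 ± 0.18).

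The genes that anchor, regulate and accompany keratin filaments were read from the same fit, and edgeR called none of them, beside 0.0262% of all genes. Of the 20 desmosome and hemidesmosome genes, which tie keratins to the cell membrane, 16 had a log2 fold change below 0. The median of the 20 was -0.08. Beside this and the counts below, 50.9% of all genes were below 0, and 9 of the 10 general epithelial markers, with a median of -0.17. The abundant desmosome genes Perp and Dsp went from 1329 ± 115 to 1248 ± 231 CPM and from 1047 ± 121 to 972 ± 76.0 CPM, by -0.09 ± 0.15 and -0.11 ± 0.12. Of 16 regulators of keratin genes 10 were below 0, with a median of -0.08. Trp63, the master transcription factor of stratified epithelia, was at 784 ± 106 and 720 ± 75.6 CPM, and Klf4, a factor of epidermal differentiation, at 400 ± 59.3 and 420 ± 47.5 CPM. Of 11 filament partners 10 were below 0, with a median of -0.05, led in level by the kinase gene Csnk1a1 (387 ± 22.3 and 372 ± 9.93 CPM) and the 14-3-3 gene Sfn (118 ± 12.2 and 109 ± 11.4 CPM).

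The cornified envelope, the protein shell of terminally differentiated keratinocytes, was low. Of 20 listed genes 19 were analysed here and 7 passed the filter, and the summed level of the 19 was 27.3 to 35.2 CPM in the 6 libraries. Tgm1, which crosslinks the envelope, was at 19.7 ± 0.672 CPM in wild type and 19.2 ± 2.16 CPM in Smad7-/-, and Sbsn, a secreted protein of differentiated keratinocytes, at 5.37 ± 1.19 and 7.03 ± 1.71 CPM. Of the 7 log2 fold changes, 4 were above 0 and 3 below, and the smallest edgeR adjusted p was 0.999. Their median was 0.23 (Lor, 0.23 ± 0.25), of the other sign than that of the cornified-layer keratins, whereas Tgm1 was at -0.04 ± 0.12. Intermediate filament genes outside the keratins had a median of 0.04 over 10 tested of 13. Vim, the mesenchymal filament, was at 767 ± 98.8 CPM in wild type and 916 ± 54.2 CPM in Smad7-/- (log2 fold change 0.26 ± 0.12, edgeR adjusted p = 0.963). The nuclear lamin gene Lmnb1 was at 532 ± 35.6 and 450 ± 9.75 CPM (-0.24 ± 0.09, edgeR adjusted p = 0.841).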

How the data were processed

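RNA of 6 mouse tooth germ libraries was sequenced, 3 per genotype. Per the submitters' processing notes, HISAT2, featureCounts, DESeq2 and the mm10 build were used, with versions not given in the sources used here. The authors deposited raw, unnormalized counts of reads for each symbol, and 27 symbols read as dates. Members and gene lists were chosen with earlier results of these data known. The filter filterByExpr with a minimum count of 10 and a minimum total of 15 kept 15284 genes, and TMM gave scaling factors of 0.984 to 1.02. edgeR 4.0.16 (R 4.3.3) fitted the 6 libraries with no covariate by its quasi-likelihood method, and p-values were adjusted by Benjamini-Hochberg across every gene that passed the filter (threshold 0.05). The SE was derived from the fit as the absolute log2 fold change divided by the square root of its F statistic. The 95% intervals were built from this SE with a t quantile. DESeq2 1.42.0 was an alternative, with other scalings, filters, covariates and libraries left out. The fits were tested on simulated data.

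Depth was 37591888 to 56575476 counts, with a biological coefficient of variation of 15.9%, and without molecular identifiers a read is not an independent molecule. CPM use TMM library sizes. CPM carry the SD over libraries, and log2 fold changes the SE. Levels per kb were divided by the length of the principal transcript in GENCODE M21 (mm10), in which 47 of the 48 members were found (Krt74 by its exon union). Members were described in every library if their mean was at least 1 CPM, if they passed the threshold, or if they were tested and their group ranges did not overlap. Related lists were described by their 2 most abundant genes.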

Additional observations from a re-analysis of the deposited data

How the results depend on the processing

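In 16 alternative fits, of which 6 left out 1 library, edgeR or DESeq2 called 0 keratins, and the smallest adjusted p of a member described per library was 0.108 (Krt75, scaled to the epithelial markers). Of 298 results for these 19 members, 282 kept their direction and 16 reversed. Scaling to the epithelial markers reversed Krt8 (0.05), Krt27 (0.10) and Krt42 (0.07) and moved the log2 ratio of the summed simple class from -0.03 to 0.08. It brought Krt5 from -0.13 to -0.02, Krt14 from -0.14 to -0.05, Krt17 from -0.14 to -0.04 and the summed basal class from -0.13 to -0.03, and the median of all genes from -0.00 to 0.11. The library set as a covariate reversed Krt28 (-0.29). Sex as a covariate reversed 0 of the 19 members and moved Krt75 from 0.74 to 0.88. Leaving out 1 library gave ranges of -0.04 to 0.26 for Krt222, -0.19 to 0.22 for Krt27, -0.24 to 0.57 for Krt28, -0.53 to 0.06 for Krt82, 0.38 to 0.83 for Krt36, -0.33 to -0.09 for Krt80 and -0.11 to 0.08 for Krt42. The causes were not tested. Over all genes, edgeR's 4 calls became 59 with DESeq2 (44 higher, 15 lower in Smad7-/-), 2 with a mean of at least 5 CPM, 25 with epithelial scaling (20 higher, 5 lower, beside 2 and 2) and 1 to 7 without 1 library (1 without Smad7-/- replicate 2, 2 without Smad7-/- replicate 1, 7 without Smad7-/- replicate 3). Smad7 ranged from -4.21 to -3.46, and without Smad7-/- replicate 2 it was -3.83 with an edgeR adjusted p of 0.0887. Libraries of the same number had residual correlations of 0.169, -0.03 and 0.09. Those between libraries of different number were not computed, so these values cannot decide whether the numbers pair them. With the replicate number as a block, edgeR called 4 genes and 0 keratins. With a median SE of 0.32, small changes of the low members were not detectable at this depth and number of libraries.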

Other observations

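Keratins whose symbol ends in a letter were outside the rule and are given as values. Krt6a, a type II keratin of periderm, oral epithelium and wounds that lies beside Krt5, was at 44.6, 32.3 and 28.2 CPM in wild type and at 34.0, 66.4 and 30.3 CPM in Smad7-/-. Its groups overlapped (35.0 ± 8.53 and 43.6 ± 19.8 CPM, log2 fold change 0.31 ± 0.31). Krt6b, its near copy, was at 2.13, 4.53 and 1.91 CPM in wild type and at 1.38, 0.966 and 0.764 CPM in Smad7-/-. Every Smad7-/- library lay below every wild-type library, with a log2 fold change of -1.47 ± 0.39 that did not pass the threshold (edgeR adjusted p = 0.632, DESeq2 adjusted p = 0.0564). Both genes were named after their values were seen, and reads of near-identical copies could be split between them by the authors' counting.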
